A study of Mus musculus with 17 samples.

Results

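The second step of the response to growth factor withdrawal was measured as the arrays at 150, 180 and 240 min (3 arrays) against the arrays at 60, 90 and 120 min (3 arrays). These are 6 of the 17 arrays of the series, chosen by the time in their labels. The cells are neural precursors from the hippocampus of adult mice, cultured on a coated surface with the growth factors bFGF (basic fibroblast) and EGF (epidermal). Both factors were removed to let the cells begin to differentiate, and RNA was hybridised to 1 Illumina bead array at each of 17 times from 0 to 720 min.

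All 6 arrays of the comparison come from cells without the factors, and they differ only in the labelled time. No genotype, strain or animal age is given in the labels used here, and no array comes from cells kept in the factors for the same time. The other 11 arrays fall into windows of 0-45 min (4 arrays, the 0 min array being proliferating cells), 300-420 min (3 arrays) and 480-720 min (4 arrays). The onset step is 60-120 min against 0-45 min, and the third step is 300-420 min against 150-240 min. Since each time was measured once, neighbouring times stood in for replicates. An SD or a p-value therefore reflects the spread among times in a window, real change inside the window included, and not the spread between independent cultures.

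Fibroblast and epidermal growth factors signal through receptor tyrosine kinases to the ERK and PI3K pathways, which keep D-type cyclins, immediate early genes and ribosome production active and FOXO factors out of the nucleus. The adult hippocampus keeps making granule neurons from such precursors. Notch signalling acts through the DNA-binding factor RBPJ and the Hes repressors, and keeps neural precursors from maturing too soon. Atf4, named with Atf3 in the title of the series, is the main transcription factor of the integrated stress response and is largely controlled at the level of translation.

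The labelled cell type was set against its markers, by whether each marker's mean over the 17 arrays reached the filter value of 6.41 on the log2 scale. Of the 19 markers of neural stem and progenitor cells on the array, 14 reached it, among them Nes with a mean of 11.47, Sox2 with 9.66 and Vim with 13.21. Pax6, Sox1, Prom1, Msi1 and Id4 did not. All 11 microglia and macrophage markers lay below the filter, with summed levels that averaged 6.01 to 6.02 per gene on the arrays at 150-240 min and 5.99 to 6.02 at 60-120 min. Of 14 endothelial and mural markers 10 lay below it, while Acta2, Flt1, Cspg4 and Tek were above.

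With limma, 667 of 9940 features (6.71%) passed an adjusted p of 0.05 in the second step. Of these 319 were higher (3.21%) and 348 lower (3.5%) at 150-240 min than at 60-120 min. The median change was 0.57 on the log2 scale among those that rose and -0.58 among those that fell, beside a median of 0.003 over all features. A change of at least 2-fold was reached by 35 of the 319 and by 22 of the 348. The 3 later and the 3 earlier arrays did not overlap for 311 of the 319 and 331 of the 348, against 2550 of all 9940 features (25.7%). The calls rest on the difference between these same arrays, so the lack of overlap is no added support for them. An unadjusted p under 0.05 was reached by 1950 features. Fewer features passed in the onset step (193, or 1.94%) and more in the third step (1052, or 10.6%), but these steps share the 60-120 min or the 150-240 min arrays with the second step, and the counts were not compared by a test.

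For each feature the largest of the 5 moves between neighbouring times of the 6 arrays was located. It ended at 150 min for 151 of the 319 features that rose and for 139 of the 348 that fell. The interval from 120 to 150 min joins the 2 windows, so a feature called between them tends to have its largest move there. Over all 9940 features, with the direction taken in the same way, the largest move also ended most often at 150 min, in 3035. The 150-240 min window was the highest of the 5 windows for 88 of the features that rose and the lowest for 85 of those that fell.

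The number of features past the threshold depended on single arrays. It was 226 without 60 min, 367 without 90 min, 667 without 120 min, 736 without 150 min, 423 without 180 min and 266 without 240 min. In all 6 of these fits 185 features passed, 90 higher and 95 lower. With both end times left out (150 and 180 min against 90 and 120 min), 62 passed.

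**Figure D1:**
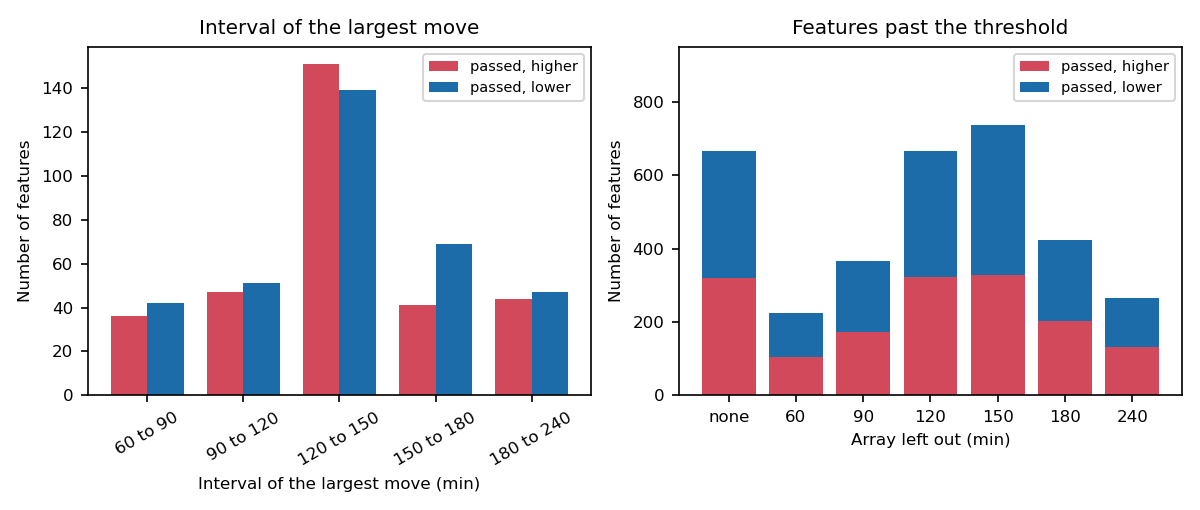
The left panel counts the features that passed in the second step, higher (red) or lower (blue). They are grouped by the interval between neighbouring times (min) that held their largest move in that direction. The right panel gives the number of features past the threshold with all arrays and with 1 array left out, stacked by direction: 120 to 150 min held 151 of the rises and 139 of the falls, and the count was lowest, at 226, without 60 min.

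The 12 largest rises and 12 largest falls were picked only among features that passed and whose windows did not overlap. The lack of overlap in these genes was therefore set by that choice. Among named genes the largest rise was in Rhbdl3, a membrane protein of the rhomboid protease family. Its log2 signal was 8.99, 9.73 and 9.86 at 150, 180 and 240 min, against 7.04, 7.44 and 8.08 at 60, 90 and 120 min. Every later array exceeded every earlier one, by a mean of 2.00 (SE 0.22, 4.01-fold, adjusted p = 2.81e-05). Pdzrn3, a ubiquitin ligase with PDZ domains, was at 9.70, 10.33 and 10.60 (150-240 min) against 8.66, 8.38 and 9.11 (60-120 min) and rose by 1.49 (SE 0.27, adjusted p = 0.00147). Lypd1, a membrane-anchored protein of the Lynx family, was at 9.40, 9.31 and 10.05 (150-240 min) against 7.76, 8.12 and 8.52 (60-120 min) and rose by 1.45 (SE 0.18, adjusted p = 8.82e-05). The windows did not overlap for either gene. The 3 values of a window are given in order of time.

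Draxin, a secreted repellent of growing axons, was at 8.71, 9.23 and 9.35 (150-240 min) against 7.33, 7.62 and 8.21 (60-120 min) and rose by 1.38 (SE 0.21, adjusted p = 0.000598). It rose again by 1.21 in the third step. Apcdd1, a membrane inhibitor of WNT signalling, rose by 1.31 (SE 0.21, adjusted p = 0.00073), and Kitl, the ligand of the KIT receptor, by 1.23 (SE 0.24, adjusted p = 0.00262). Kitl lay between 9.33 and 10.10 at 150-240 min and between 8.22 and 8.55 at 60-120 min, with a small spread in the earlier window. Dyrk1b, a kinase linked to exit from the cell cycle, rose by 1.17 (SE 0.19, adjusted p = 0.000705). Retreg1, which targets endoplasmic reticulum for autophagy, was at 8.88, 8.79 and 9.59 (150-240 min) against 7.40, 7.74 and 8.41 (60-120 min) and rose by 1.23 (SE 0.22, adjusted p = 0.00116). All genes of this and the preceding paragraph passed with each of the 6 arrays left out in turn.

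Aatk, a membrane kinase first found in cells undergoing apoptosis, fell most among named genes. It was at 9.05, 8.60 and 8.15 at 150, 180 and 240 min, against 10.76, 10.51 and 9.48 at 60, 90 and 120 min, a change of -1.65 (SE 0.29, adjusted p = 0.00141). The signal was lower at each successive time. Ube2ql1, of the ubiquitin-conjugating enzyme family, was at 7.40, 7.19 and 6.67 (150-240 min) against 8.58, 8.47 and 8.01 (60-120 min) and fell by 1.27 (SE 0.16, adjusted p = 8.82e-05). Chst2, a sulfotransferase that modifies surface sugars, was at 9.80, 9.33 and 8.60 (150-240 min) against 10.32, 10.41 and 10.40 (60-120 min). The SD of its earlier arrays was 0.05, and it fell by 1.13 (SE 0.18, adjusted p = 0.00073) and again by 1.06 in the third step.

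Tgfbr2, the type II receptor for TGF-beta, was at 9.36, 8.95 and 9.45 (150-240 min) against 10.91, 10.43 and 10.02 (60-120 min), a change of -1.20 (SE 0.20, adjusted p = 0.00098). Its mean at 150-240 min, 9.25, was the lowest of the 5 windows, and it rose by 0.66 in the third step. Tnfrsf12a, the receptor for the cytokine TWEAK, was at 7.97, 7.45 and 7.51 (150-240 min) against 9.08, 8.67 and 8.75 (60-120 min), a change of -1.19 (SE 0.14, adjusted p = 5.52e-05). Neither gene had overlapping windows, as the rule that picked them required.

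The recycling factor Ehd4 fell by 1.16 (SE 0.17, adjusted p = 0.000373) and the adaptor Epn2 by 1.15 (SE 0.19, adjusted p = 0.000954). Sipa1l3, which turns off the GTPase Rap, fell by 1.15 (SE 0.18, adjusted p = 0.000655), and the cyclin Y relative Ccnyl1 by 1.13 (SE 0.23, adjusted p = 0.0046). Rassf3, a Ras association domain protein, was at 9.56, 9.29 and 9.86 (150-240 min) against 11.37, 10.91 and 9.96 (60-120 min). The 240 and 120 min arrays were the nearest across the windows. The fall of 1.18 (SE 0.26, adjusted p = 0.00717) was -0.87 without 60 min, where it did not pass (adjusted p = 0.0751). The other genes of this paragraph, and Aatk, Ube2ql1, Chst2, Tgfbr2 and Tnfrsf12a, passed with each of the 6 arrays left out.

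**Figure D2:**
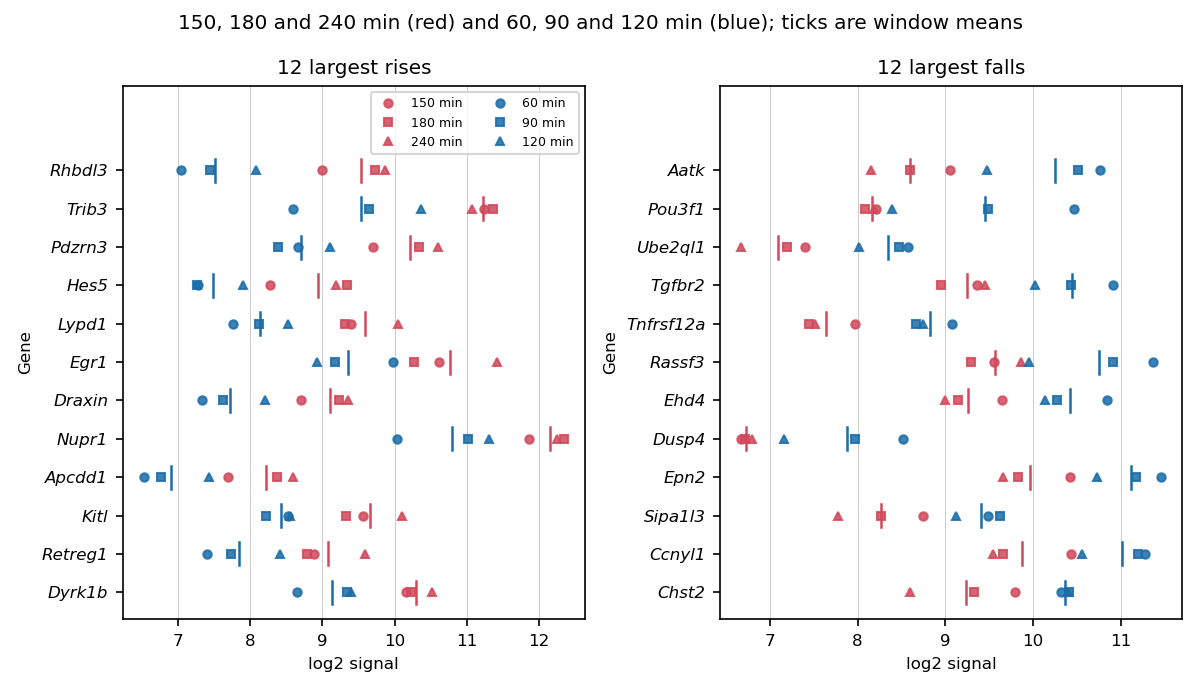
Log2 signal (horizontal axis) of the 12 named genes with the largest rises (left) and falls (right), with 1 point per array and the window means as ticks: red for 150, 180 and 240 min, blue for 60, 90 and 120 min. Red and blue points do not overlap because only genes without overlap were picked. The 120 min array lies next to the red points in most, as in Rassf3 with 9.96 beside 9.86.

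Among Notch pathway genes every change past the threshold was upward. Of 12 list members above the filter 5 passed as higher and 0 as lower, with a list median of 0.44 beside 0.003 for all features. The second step as a whole held 3.21% higher. The 7 that did not pass lay between -0.01 and 0.48. The 5 were Hes5, Mfng, Hes6, Nrarp and Notch1, of which Notch1 was named after its value was seen.

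Hes5 is a repressor that Notch switches on through RBPJ. It was at 8.28, 9.34 and 9.19 at 150, 180 and 240 min, against 7.28, 7.27 and 7.90 at 60, 90 and 120 min. The windows did not overlap, and the change was 1.45 (SE 0.21, adjusted p = 0.000373). Hes5 also passed as higher in the onset step (0.84) and in the third step (0.74), so its rise ran through all 3 steps.

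To show where the letters bound by RBPJ lie at this gene, 2 stretches of the Hes5 promoter are printed 5′ to 3′ on the gene's strand from RefSeq's GRCm38.p6, with the match TGGGAA, or TTCCCA where it lies on the other strand, in capitals. The first is at chr4:154960805-154960882 (+), with the match 82 bases before the start of the gene, and the second at chr4:154960673-154960738 (+), with the match 226 bases before it.
Hes5, gene strand: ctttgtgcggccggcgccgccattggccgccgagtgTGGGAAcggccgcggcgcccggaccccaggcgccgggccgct
Hes5, other strand: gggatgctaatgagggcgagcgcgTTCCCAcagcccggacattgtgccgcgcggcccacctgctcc
TGGGAA is a short run of letters. On either strand it was in 30.1% of the promoters of features that rose, 25.3% of those that fell and 26.4% of all features tested, in windows of 250 bases before to 50 bases after the start. The share over all 27025 genes searched was 28.3%. A match is a description of the sequence and does not show binding.

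The other Notch genes had smaller changes than Hes5. Mfng, a fringe glycosyltransferase that tunes Notch receptors, was at 8.86, 9.44 and 9.60 (150-240 min) against 7.79, 8.18 and 8.45 (60-120 min) and rose by 1.16 (SE 0.23, adjusted p = 0.00293). Hes6, a Hes relative that opposes Hes1, was at 12.38, 12.45 and 12.70 (150-240 min) against 11.45, 11.87 and 11.79 (60-120 min) and rose by 0.81 (SE 0.15, adjusted p = 0.00204). Nrarp, a feedback inhibitor in the Notch complex, was at 9.82, 10.08 and 10.23 (150-240 min) against 9.17, 9.26 and 9.48 (60-120 min) and rose by 0.74 (SE 0.15, adjusted p = 0.00334). Later arrays exceeded earlier ones in all 3 genes. The receptor gene Notch1 rose by 0.51 (adjusted p = 0.0264), while the ligand Dll1 had a change of 0.48 (adjusted p = 0.0925) and Hes1 of 0.21 (adjusted p = 0.507). Hes5, Mfng, Hes6 and Nrarp passed with each array left out. Notch1 did not without 60 (0.39), 90 (0.56), 150 (0.50) or 240 min (0.48).

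**Figure D3:**
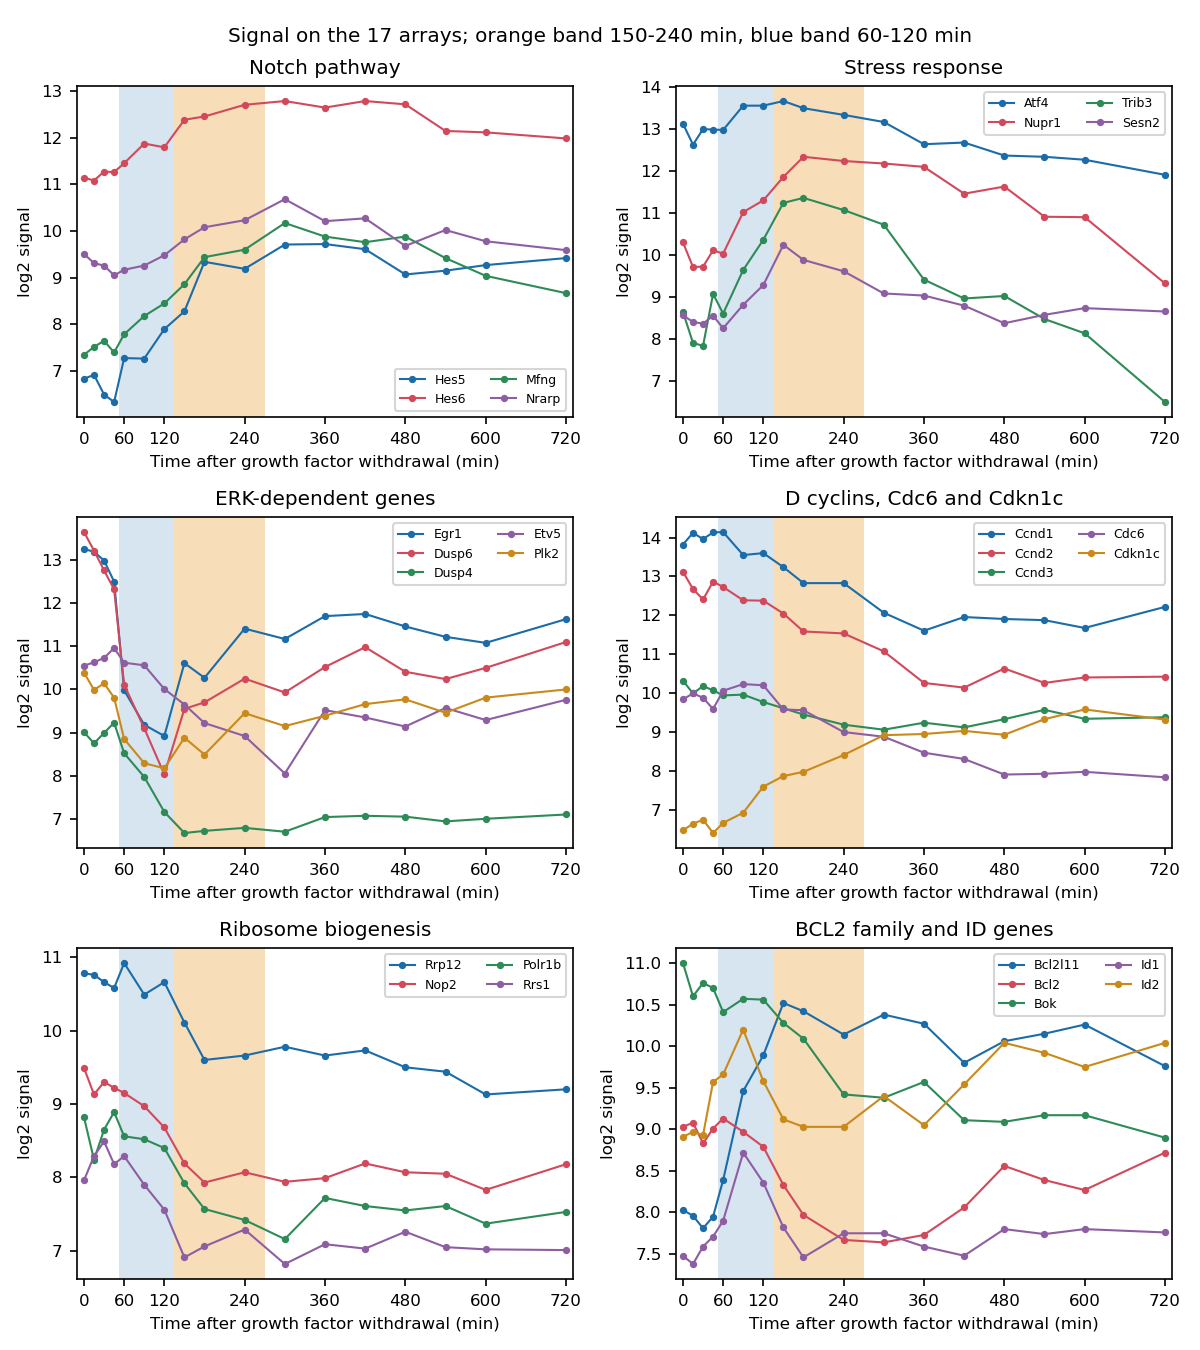
Log2 signal against time after growth factor withdrawal (min) for genes of 6 groups on all 17 arrays, 1 array per point, with 150-240 min shaded orange and 60-120 min shaded blue. Notch genes climb through both bands, Trib3 and Sesn2 peak in the orange band, Egr1 and Dusp6 turn upward after 120 min, and the ribosome biogenesis genes and D cyclins are lower in the orange band than in the blue one.

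Atf4 did not pass in the second step. Its log2 signal was 13.67, 13.50 and 13.34 at 150, 180 and 240 min, against 12.98, 13.56 and 13.56 at 60, 90 and 120 min. The windows overlapped, and the difference was 0.14 (SE 0.17, adjusted p = 0.716), or -0.06 without 60 min. Atf4 fell by 0.67 in the third step. Atf3 lay below the filter, and in a fit of all 19854 features it was at 7.04, 6.70 and 6.49 (150-240 min) against 6.30, 6.47 and 6.87 (60-120 min), a difference of 0.20 (SE 0.14, adjusted p = 0.635). It fell by 0.60 in the third step of that fit.

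Of 16 integrated stress response genes above the filter 5 rose and 0 fell, beside 3.21% higher and 3.5% lower over all features, with a list median of 0.33. Without 60, 90, 180 or 240 min 2 members rose. The 5 were Trib3, Nupr1, Sesn2, Vldlr and Cebpg, the last named after its value was seen. Sesn2, a sestrin that restrains mTORC1 when amino acids are short, was at 10.24, 9.88 and 9.61 (150-240 min) against 8.25, 8.81 and 9.28 (60-120 min). The windows did not overlap, and it rose by 1.13 (SE 0.18, adjusted p = 0.000737). Its highest array was 150 min, its mean at 150-240 min was the highest of the 5 windows, and it fell by 0.94 in the third step. Cebpg, a partner of Atf4 on DNA, rose by 0.65 (adjusted p = 0.0046). Sesn2 and Cebpg were the 2 list members that passed with each array left out.

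Trib3, a pseudokinase switched on by Atf4, was at 11.24, 11.36 and 11.07 (150-240 min) against 8.60, 9.64 and 10.36 (60-120 min). Its windows did not overlap, and it rose by 1.68 (SE 0.50, 3.21-fold, adjusted p = 0.0438). Trib3 passed only without 120 min among the 6 fits that left out an array: the other 5 gave 1.22 to 1.76 with adjusted p between 0.082 and 0.265, the lowest change without 60 min. Nupr1, a small nuclear stress protein, was at 11.86, 12.34 and 12.24 (150-240 min) against 10.03, 11.02 and 11.30 (60-120 min) and rose by 1.36 (SE 0.38, adjusted p = 0.0303). Without 60, 90, 180 or 240 min its change was 0.98, 1.48, 1.26 or 1.32, and it did not pass. Vldlr, a lipoprotein and reelin receptor, was at 11.98, 11.93 and 12.21 (150-240 min) against 10.59, 11.40 and 11.62 (60-120 min) and rose by 0.84 (SE 0.25, adjusted p = 0.0446). It did not pass without 60, 90, 150, 180 or 240 min, with changes of 0.53 to 0.93. For all 3 genes the 60 min array was the lowest of the 6.

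The core of the element that Atf4 binds with C/EBP partners was searched as TGATGNAA on both strands, and 2 of the 3 genes held it. The stretches are from RefSeq's GRCm38.p6, 5′ to 3′ on the gene's strand, with the match, which lies on the other strand and reads TTGCATCA here, in capitals. For Nupr1 it is at chr7:126625537-126625616 (-), with the match 110 bases before the start, and for Vldlr at chr19:27216784-27216863 (+), with the match 200 bases before it.
Nupr1: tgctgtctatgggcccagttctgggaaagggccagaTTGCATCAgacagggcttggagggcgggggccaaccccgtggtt
Vldlr: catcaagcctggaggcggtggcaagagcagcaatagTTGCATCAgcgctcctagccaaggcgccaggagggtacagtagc
The core was in 4.24% of promoters of features that rose (10 of 236) and 1.51% of those that fell (4 of 265). It was in 2.61% of all features tested and in 4.51% of all 27025 genes searched, a share above that of the features that rose. No test was made of these shares. Sesn2, which passed with each array left out, had no match to the core before its start. Among named genes that did not pass, Aars, Atf3, Atp6v0d1, Herpud1 and Slc7a11 held it.

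Of 7 amino acid transporters above the filter 2 rose and 1 fell, beside 6.71% of all features past the threshold, with a list median of 0.49. The glycine transporter Slc6a9 rose by 0.79 (adjusted p = 0.0209), the neutral amino acid transporter Slc1a4 rose by 0.49 (adjusted p = 0.0163), and Slc43a1 fell by 0.53 (adjusted p = 0.016). The cystine transporter Slc7a11 was at 10.20, 10.20 and 10.76 (150-240 min) against 9.37, 9.57 and 9.51 (60-120 min). The windows did not overlap, yet its change of 0.90 did not pass (adjusted p = 0.0605). Without 60 min Slc6a9 was at 0.68, Slc1a4 at 0.41 and Slc43a1 at -0.43, and none of the 3 passed. Leaving out 90 min also ended the call of Slc43a1 (-0.54), 180 min those of Slc1a4 (0.41) and Slc43a1 (-0.48), and 240 min those of Slc6a9 (0.73) and Slc43a1 (-0.45). Of 10 serine, one-carbon and proline synthesis genes 1 rose, the alanine aminotransferase Gpt2, and 1 fell, Shmt1, and both calls were lost without 60, 90, 180 or 240 min, where Gpt2 was at 0.34 to 0.51 and Shmt1 at -0.44 to -0.32. Of 15 tRNA synthetases 0 passed, with changes between -0.15 and 0.27.

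Among the 10 feedback genes of MAPK and growth factor signalling above the filter 0 rose and 3 fell, beside 3.5% lower over all features, with a list median of -0.11. Without 60 min 1 of them fell, and without 90 or 240 min 2 did. Dusp4, a nuclear phosphatase of ERK, was at 6.67, 6.72 and 6.79 (150-240 min) against 8.52, 7.97 and 7.16 (60-120 min) and fell by 1.16 (SE 0.21, adjusted p = 0.00136), after a fall of 1.11 in the onset step. The SD of the 3 later arrays was 0.06, with signals close to the filter value, so the fold is the measured one. Etv5, an ETS factor downstream of FGF signalling, was at 9.65, 9.22 and 8.92 (150-240 min) against 10.62, 10.56 and 10.01 (60-120 min) and fell by 1.13 (SE 0.27, adjusted p = 0.0119). Its change was -1.02, -1.05 and -0.96 without 60, 90 and 240 min, where it did not pass. Ccnd1, also in this list, is described with the cyclins.

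Dusp6, the phosphatase that turns off cytoplasmic ERK, was at 9.55, 9.70 and 10.25 (150-240 min) against 10.11, 9.10 and 8.03 (60-120 min). The windows overlapped because 60 min stood above 150 and 180 min, and the difference of 0.76 (SE 0.38, adjusted p = 0.271) did not pass. It was between 0.23 (without 120 min) and 1.27 (without 60 min) with 1 array left out and passed in none of these fits. It fell by 3.91 in the onset step. A spline fitted through all times put the second step at -0.94 (adjusted p = 0.0149), with the sign turned. The second step differed from the onset step by 4.67 (adjusted p = 0.00125).

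Of 12 immediate early genes above the filter 1 rose and 2 fell, beside 3.21% higher and 3.5% lower over all features. The 1 that rose was Egr1, a zinc finger factor. It was at 10.61, 10.27 and 11.41 (150-240 min) against 9.98, 9.18 and 8.92 (60-120 min), and rose by 1.40 (SE 0.26, adjusted p = 0.00209). Its windows did not overlap. It fell by 3.62 in the onset step, from which the second step differed by 5.02 (adjusted p = 1.34e-06). The spline put the second step of Egr1 at -0.42 (adjusted p = 0.349), also with the sign turned. The difference was 4.58 to 5.64 with each of the 6 arrays left out and passed in every one, as did that of Dusp6, at 3.61 to 5.70. The highest Egr1 value of the 6 arrays, 11.41, was still below the mean of 12.99 at 0-45 min. Srf, which drives immediate early genes, fell by 0.50 (adjusted p = 0.0174) and Fosl2 by 0.47 (adjusted p = 0.0173). Srf did not pass without 60 (-0.39), 90 (-0.46) or 240 min (-0.41), nor Fosl2 without 120 or 180 min (-0.39 each). Plk2, a polo-like kinase, was at 8.88, 8.49 and 9.45 (150-240 min) against 8.85, 8.29 and 8.17 (60-120 min), and its change of 0.51 did not pass (adjusted p = 0.165). It fell by 1.65 in the onset step.

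In the test of the second step minus the onset step 21 features passed (0.211%), and 946 had an unadjusted p under 0.05. The steps share the 60-120 min arrays, which count for one step and against the other. Beside Egr1, Map11 fell by 0.55 in the onset step and then rose, with 8.45, 8.70 and 8.63 (150-240 min) against 7.78, 8.09 and 7.99 (60-120 min), by 0.64 (SE 0.14, adjusted p = 0.00804). Without 60 min its change was 0.56 and did not pass.

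Id1 and Id2, inhibitors of DNA binding, had the opposite course. Id2, which blocks basic helix-loop-helix factors, was at 9.12, 9.03 and 9.03 (150-240 min) against 9.66, 10.20 and 9.58 (60-120 min). It rose by 0.72 in the onset step and fell by 0.75 in the second (SE 0.17, adjusted p = 0.00905). Id1 was at 7.82, 7.46 and 7.75 (150-240 min) against 7.90, 8.72 and 8.36 (60-120 min), rose by 0.79 in the onset step and fell by 0.65 in the second (SE 0.15, adjusted p = 0.0107). Both genes were highest at 90 min, and without that array the changes were -0.56 for Id2 and -0.45 for Id1 and did not pass. Id1 did not pass without 180 min either (-0.54). Of 6 BMP and ID genes above the filter 0 rose and 2 fell, beside 3.5% lower over all features. The list median was -0.34, and Id3 had a change of -0.47 (adjusted p = 0.161).

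Further genes that rose in the onset step and fell in the second were Csrnp1, Prickle1, Ccno and Nox4. Csrnp1, a nuclear protein induced by many stimuli, was at 7.19, 6.69 and 6.39 (150-240 min) against 7.23, 7.60 and 7.44 (60-120 min), and its change was -0.67 (SE 0.16, adjusted p = 0.0108) after 0.68. Prickle1, of the planar cell polarity pathway, changed by -0.56 (adjusted p = 0.0207) after 0.60, and the NADPH oxidase Nox4 by -0.45 (adjusted p = 0.0116) after 0.51. The cyclin relative Ccno changed by -0.56 (adjusted p = 0.0371) after 0.93, and by -0.88 in the third step. Csrnp1 did not pass without 90 (-0.58) or 240 min (-0.48), nor Prickle1 without 90 (-0.42), 180 (-0.56) or 240 min (-0.50). Nox4 did not pass without 180 (-0.42) or 240 min (-0.41). Ccno passed without 150 min and in no other fit with 1 array less, where it was at -0.59 to -0.37.

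All 3 D-type cyclins, which link growth factors to entry into S phase, fell. Ccnd1 was at 13.24, 12.83 and 12.83 (150-240 min) against 14.14, 13.55 and 13.60 (60-120 min) and fell by 0.80 (SE 0.16, adjusted p = 0.00427), and it fell by 1.09 in the third step. Ccnd2 was at 12.05, 11.59 and 11.54 (150-240 min) against 12.73, 12.39 and 12.38 (60-120 min) and fell by 0.78 (SE 0.20, adjusted p = 0.0207), and by 1.22 in the third step. Ccnd3 fell by 0.47 (adjusted p = 0.0183). Earlier and later arrays of the 3 genes did not overlap. Cdc6, which loads the replicative helicase, was at 9.59, 9.57 and 9.01 (150-240 min) against 10.07, 10.24 and 10.21 (60-120 min) and fell by 0.78 (SE 0.15, adjusted p = 0.00248). Cdc6 passed with each array left out. Without 60 min Ccnd1 was at -0.61 (adjusted p = 0.0518), Ccnd2 at -0.66 and Ccnd3 at -0.45, and none of the 3 passed. Ccnd2 did not pass without 180 (-0.71) or 240 min (-0.68), nor Ccnd3 without 90 (-0.43) or 240 min (-0.36).

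These 4 were the genes that passed among 23 of G1/S and DNA replication above the filter, 0 higher and 4 lower, with a list median of -0.25. The step as a whole had 3.5% lower. Of 16 G2/M and mitosis genes 0 passed, with changes from -0.16 to 0.41 and a median of 0.12. Of 6 CDK inhibitors 1 rose, beside 3.21% higher over all features. This was Cdkn1c, which binds cyclin complexes and marks cells leaving the cycle. It was at 7.88, 7.99 and 8.42 (150-240 min) against 6.68, 6.94 and 7.61 (60-120 min), and rose by 1.02 (SE 0.19, adjusted p = 0.00175) and again by 0.88 in the third step. Its 60 min signal was close to the filter value, so the fold is the measured one. Cdkn1a had a change of 0.60 (adjusted p = 0.0787) and Cdkn1b of 0.16 (adjusted p = 0.745).

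Genes of the BCL2 family, which sets the threshold for mitochondrial apoptosis, moved in both directions. Bcl2l11, the BH3-only protein Bim and a FOXO target, was at 10.52, 10.42 and 10.14 (150-240 min) against 8.39, 9.46 and 9.89 (60-120 min) and rose by 1.11 (SE 0.24, adjusted p = 0.00588) after 1.31 in the onset step. The survival gene Bcl2 was at 8.33, 7.97 and 7.67 (150-240 min) against 9.13, 8.97 and 8.79 (60-120 min) and fell by 0.97 (SE 0.15, adjusted p = 0.000615). Its signal was lower at each successive time of the 6. Of 12 family members above the filter 1 rose and 3 fell, beside 3.21% higher and 3.5% lower over all features. The other falls were Bid (-0.60, adjusted p = 0.0251) and Bok (-0.58, adjusted p = 0.0368), both promoters of apoptosis. Bid and Bok did not pass without 60, 90, 120 or 240 min, with changes of -0.62 to -0.42 for Bid and -0.63 to -0.32 for Bok. Bcl2l11 and Bcl2 passed with each array left out, Bcl2l11 with a lowest change of 0.68 without 60 min. Over the list, 3 members rose without 120 min.

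Of 15 FOXO and PI3K feedback genes above the filter 3 rose and 0 fell, beside 3.21% higher over all features, with a list median of 0.18. Without 120 min 5 rose, and without 60 or 180 min 2 did. Beside Bcl2l11 they were 2 sestrins, Sesn3 and Sesn1. Sesn3 was at 8.32, 8.99 and 9.05 (150-240 min) against 7.56, 7.56 and 7.98 (60-120 min) and rose by 1.09 (SE 0.18, adjusted p = 0.00073), and it passed with each array left out. Sesn1, also a p53 target, rose by 0.45 (adjusted p = 0.0424) and did not pass without 60 (0.33), 120 (0.48), 150 (0.38) or 180 min (0.41). The list holds both activators and inhibitors of growth. Ccng2, a cyclin of arrested cells, had a change of 0.61 (adjusted p = 0.0692). Of 17 p53 targets 2 rose, Sesn1 and the kinase gene Plk3 (0.72, adjusted p = 0.0317), and Plk3 did not pass without 60 (0.61), 90 (0.73), 180 (0.71) or 240 min (0.62).

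Among ribosome biogenesis genes every change past the threshold was downward. Of 21 list members above the filter 7 fell, 0 rose and 14 did not pass, beside 3.5% lower over all features. The list median was -0.34 and the highest change in the list 0.02. Rrp12, which helps export ribosomal subunits, was at 10.11, 9.60 and 9.66 (150-240 min) against 10.92, 10.49 and 10.66 (60-120 min) and fell by 0.90 (SE 0.14, adjusted p = 0.000514). Nop2, an RNA methyltransferase of the large subunit, was at 8.19, 7.93 and 8.07 (150-240 min) against 9.15, 8.97 and 8.68 (60-120 min) and fell by 0.87 (SE 0.13, adjusted p = 0.000438). Polr1b, a core subunit of RNA polymerase I, was at 7.92, 7.57 and 7.42 (150-240 min) against 8.56, 8.52 and 8.40 (60-120 min) and fell by 0.86 (SE 0.16, adjusted p = 0.00191). Rrs1, an assembly factor of the large subunit, was at 6.91, 7.06 and 7.29 (150-240 min) against 8.29, 7.90 and 7.56 (60-120 min) and fell by 0.83 (SE 0.16, adjusted p = 0.00222). The windows were apart in all 4 genes, which passed with each array left out. The other 3, named after their values were seen, were Ppan (-0.68), Wdr43 (-0.54) and Gnl3 (-0.51). They did not pass without 60 min (-0.44, -0.46 and -0.36), nor did Ppan without 240 min (-0.64) or Gnl3 without 90 (-0.52), 180 (-0.39) or 240 min (-0.54). Between 4 members (without 60 min) and 9 (without 150 min) fell when 1 array was left out.

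Genes for the ribosomal proteins themselves did not pass. Of 9 cytosolic ribosomal proteins above the filter 0 were higher or lower, with changes from -0.06 to 0.30, and Rpl23 had the largest (adjusted p = 0.121). The E-box CACGTG is read alike on both strands and bound by MYC among other factors. It was in 8.47% of promoters of features that rose (20 of 236) and 18.1% of those that fell (48 of 265). It was in 11.9% of all features tested and in 8.09% of all genes searched. No match before the start was found for Rrp12, Polr1b or Rrs1. The E-box also lay before the start of Dyrk1b, Lypd1, Nupr1 and Retreg1, which rose, and of Aatk and Sipa1l3, which fell. Nop2, a gene chosen after its values were seen, holds it 60 bases before the start. The stretch is shown from RefSeq's GRCm38.p6 at chr6:125131787-125131864 (+), with the E-box in capitals.
Nop2: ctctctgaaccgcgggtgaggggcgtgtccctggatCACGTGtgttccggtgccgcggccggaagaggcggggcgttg
The Myc probe was too dim for the filter, at a mean of 6.40, and had a change of -0.04 in the fit of all features. The other motifs searched on both strands were the FOXO site GTAAACA (4.24% of promoters of features that rose, 5.28% of those that fell, 3.14% of all tested), the CRE TGACGTCA (2.12%, 3.77% and 3.75% in the same order) and the AP-1 site TGANTCA (6.36%, 6.42% and 5.68%). Over all genes searched the 3 motifs had shares of 4.05%, 2.03% and 8.97%. No test was made of these shares, and of the features tested 7326 had a promoter to search.

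Patterning transcription factors of the POU and homeobox families fell in 4 of 8 members above the filter and rose in 0, beside 3.5% lower over all features, with a list median of -0.41. Without 60 or 240 min 1 member fell, and without 90 or 180 min 2 did. Pou3f1 was at 8.21, 8.08 and 8.19 (150-240 min) against 10.47, 9.49 and 8.39 (60-120 min) and fell by 1.29 (SE 0.33, adjusted p = 0.0179), after a fall of 1.79 in the onset step. By 120 min it was already near the level of the later arrays, and without 60 min the change was -0.78 and did not pass. Without 90, 180 or 240 min it was at -1.27, -1.25 or -1.31 and did not pass either. Gbx2 was at 7.74, 7.38 and 7.58 (150-240 min) against 9.33, 8.57 and 8.06 (60-120 min) and fell by 1.09 (SE 0.22, adjusted p = 0.00361), after 1.33 in the onset step, and it passed with each array left out. Dlx1 fell by 0.63 (adjusted p = 0.00622) and Lhx2 by 0.39 (adjusted p = 0.044). Dlx1 did not pass without 60 or 240 min (-0.51 each), and Lhx2 passed only without 120 min, with values of -0.43 to -0.27 in the other 5 fits.

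In the WNT pathway 3 of 13 members above the filter rose and 2 fell, beside 6.71% of all features past the threshold, with a list median of -0.01. Without 60, 90 or 240 min 1 rose and 1 fell. Nkd1, a feedback inhibitor, was at 8.37, 8.52 and 8.59 (150-240 min) against 7.29, 7.74 and 7.97 (60-120 min) and rose by 0.83 (SE 0.14, adjusted p = 0.00107). The ligand genes Wnt7b and Wnt7a went opposite ways. Wnt7b was at 10.75, 10.73 and 11.01 (150-240 min) against 9.98, 9.66 and 10.59 (60-120 min) and rose by 0.75 (SE 0.17, adjusted p = 0.00728), and Wnt7a was at 10.53, 9.98 and 9.73 (150-240 min) against 10.97, 10.85 and 10.75 (60-120 min) and fell by 0.77 (SE 0.15, adjusted p = 0.0029). Tcf7l1, a repressor at WNT targets, rose by 0.68 (adjusted p = 0.0165), and the receptor gene Fzd1, named after its value was seen, fell by 0.53 (adjusted p = 0.0262). Nkd1 and Wnt7a passed with each array left out. Wnt7b did not pass without 60 (0.71), 90 (0.55) or 240 min (0.66), nor Tcf7l1 without 60 (0.54), 90 (0.66) or 240 min (0.58). Fzd1 passed only without 120 min when 1 array was left out, with -0.56 to -0.42 in the other fits. The WNT target Axin2 had a change of -0.42 (adjusted p = 0.394).

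Of the receptors for the withdrawn factors, 1 of 6 EGF and FGF receptor genes above the filter rose, beside 3.21% of all features. Fgfr2 was at 12.17, 12.08 and 12.14 (150-240 min) against 10.95, 11.52 and 11.81 (60-120 min), and rose by 0.71 (SE 0.17, adjusted p = 0.0116). The SD of its later arrays was 0.04. Without 60 min the change was 0.46 and did not pass. Fgfr2 fell by 0.73 in the third step. Egfr, the EGF receptor gene, had a change of -0.30 (adjusted p = 0.373), with 11.54, 11.21 and 11.49 (150-240 min) against 11.64, 11.49 and 11.99 (60-120 min).

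Genes that were highest or lowest at 150-240 min were compared with the third step, with which they share these arrays. In that test 27 features passed (0.272%), and 1086 had an unadjusted p under 0.05. Lrrc75b was at 8.69, 8.45 and 8.06 (150-240 min) against 6.86, 7.34 and 7.58 (60-120 min) and rose by 1.14 (SE 0.19, adjusted p = 0.000737), then fell by 1.19. The third step differed from the second by -2.33 for Lrrc75b, -2.08 for Sesn2, -1.44 for Fgfr2 and 1.86 for Tgfbr2 (adjusted p = 0.0034, 0.00797, 0.0343 and 0.0273). All 4 of these differences lost their call without the 180 min array, where 0 features passed and 806 had an unadjusted p under 0.05. That of Fgfr2 was also lost without 90 (-1.49), 150 (-1.40) or 240 min (-1.43), that of Tgfbr2 without 90 (1.87) or 150 min (1.97), and that of Sesn2 without 150 min (-1.74).

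Of 10 neuronal markers above the filter 3 rose and 1, Dlx1, fell, beside 6.71% of all features past the threshold, with a list median of -0.02. Without 60 or 240 min 1 rose and 0 fell. Sox4, a factor of differentiating precursors, was at 11.58, 11.76 and 11.99 (150-240 min) against 10.38, 10.96 and 11.01 (60-120 min) and rose by 0.99 (SE 0.17, adjusted p = 0.00098), after 0.70 in the onset step. Insm1, a zinc finger factor of neuron-forming precursors, rose by 0.78 (adjusted p = 0.00747), and Prox1, which marks the granule neuron lineage of the dentate gyrus, by 0.69 (adjusted p = 0.0224). Sox4 passed with each array left out, while Insm1 did not without 60 (0.73) or 240 min (0.55), nor Prox1 without 60 (0.45), 150 (0.67) or 240 min (0.67). The markers of mature or committed neurons Tubb3, Dcx, Stmn2, Snap25 and Rbfox3 were below the filter.

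Among the 14 markers of neural stem and progenitor cells 1 gene rose and another fell, beside 6.71% of all features past the threshold. Sox2, which maintains the precursor state, was at 9.69, 9.64 and 10.06 (150-240 min) against 9.26, 9.00 and 9.31 (60-120 min) and rose by 0.61 (adjusted p = 0.0107). Nr2e1, a nuclear receptor of neural stem cells, was at 7.49, 7.66 and 7.27 (150-240 min) against 8.12, 8.14 and 8.06 (60-120 min) and fell by 0.64 (adjusted p = 0.0108). The windows of the 2 genes did not overlap, but Sox2 did not pass without 90 (0.52) or 240 min (0.47), nor Nr2e1 without 60 (-0.63) or 240 min (-0.53). Of 11 astrocyte markers 1 rose, S100b by 0.65 (adjusted p = 0.0341), which passed without 150 min and in no other fit with 1 array less (0.51 to 0.70). Of 6 oligodendrocyte lineage markers 0 passed, with changes between -0.22 and 0.45.

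Clock genes included 1 that rose and 2 that fell among 10, beside 6.71% of all features past the threshold. Arntl, the activator of the clock, rose by 0.62 (adjusted p = 0.00885), and its repressors Per1 and Bhlhe40 fell by 0.82 and 0.87 (adjusted p = 0.0168 and 0.0174). Arntl was at 9.05, 9.38 and 9.44 (150-240 min) against 8.54, 8.56 and 8.90 (60-120 min), with no overlap. Per1 was at 7.44, 7.12 and 6.76 (150-240 min) against 8.08, 8.13 and 7.57 (60-120 min), and only the windows of Bhlhe40 overlapped. All 3 calls were lost without 60 or 90 min and without 240 min, where Arntl was at 0.54 to 0.57, Per1 at -0.74 to -0.64 and Bhlhe40 at -0.76 to -0.67, and that of Bhlhe40 without 180 min as well (-0.85).

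In several lists no member passed. They were the tRNA synthetases, G2/M genes, cytosolic ribosomal proteins and oligodendrocyte markers given above, 12 sterol synthesis genes (changes of 0.03 to 0.37), 17 genes of endoplasmic reticulum chaperones and the unfolded protein response (-0.40 to 0.26), 7 heat shock proteins (-0.43 to 0.48), 10 NRF2 and glutathione genes (-0.30 to 0.90), 16 glycolysis and hypoxia genes (-0.31 to 0.31) and 4 endothelial and mural markers (-0.34 to 0.24). A p that misses the threshold does not show that these genes stayed the same. In the remaining lists the genes that passed were Draxin among 20 axon guidance genes, Retreg1 among 13 autophagy and lysosome genes, and Ifit2 among 8 interferon response genes. Over all features 6.71% passed. Ifit2 fell by 0.55 (adjusted p = 0.0416) and passed only without 120 min when 1 array was left out, with -0.58 to -0.46 in the other fits.

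**Figure D4:**
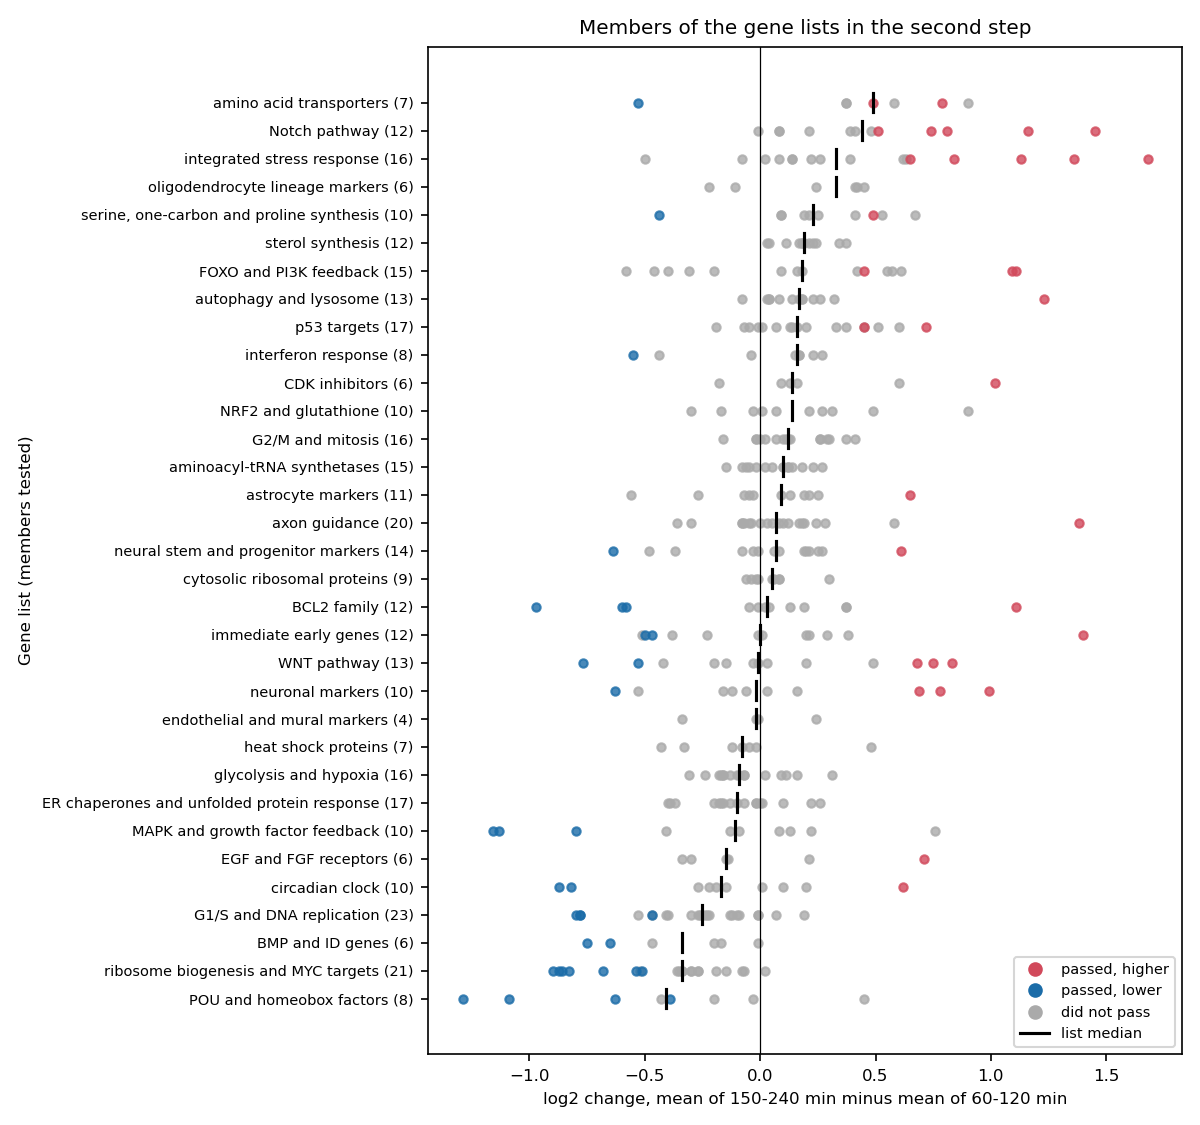
Log2 change in the second step (horizontal axis, 150-240 min minus 60-120 min) of the members above the filter in each gene list, with 1 point per gene, red for higher and blue for lower past the threshold, gray for the rest, and a black tick at the list median. Amino acid transporters, Notch genes and stress response genes have medians of 0.49, 0.44 and 0.33, and ribosome biogenesis and POU and homeobox genes of -0.34 and -0.41.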

How the data were processed

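The authors deposited 1 table of 17 arrays with 19949 probes. The authors made the log2 signals in it before deposit, from arrays labelled with biotin, per the labels' protocols. No unit is stated, and log2 was inferred from the range of 5.14 to 15.47. How background was corrected and arrays normalized is not stated in the labels or the file. The deposited array medians were 6.404 to 6.425, and no further scaling was applied. The number of arrays limits the precision.

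Probes were named through the platform annotation (18351 with 1 symbol, 0 with several, 1598 unnamed), with symbols updated through the mouse RefSeq table. The probe with the highest mean over 17 arrays stood for a gene (95 genes had more than 1), and features with a mean under the median probe, 6.41, were left out, which kept 9940 of 19854. No detection p-values were used, so dim probes cannot be told from background.

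All 17 arrays in 5 windows were fitted with limma 3.58.1 (lmFit, eBayes, R 4.3.3), and p-values were adjusted by Benjamini-Hochberg over all features tested at 0.05. The procedure was tested on simulated data. The windows, members, gene lists and motifs were chosen with earlier results of these data known. Named were Atf3 and Atf4, and the 12 largest changes each way without overlap. Also named were the largest changes that reversed the onset step (2 upward, 6 downward) or were highest or lowest in the window (6 each way). Up to 4 members per list were added, and placeholder symbols were passed over. Alternatives covered arrays, filter, scaling, variance model, array weights, probe choice, window limits, a curve fit and leaving out each array. Promoter sequences came from RefSeq (GRCm38.p6).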

Additional observations from a re-analysis of the deposited data

Results flagged for a closer look

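Features of the second step were looked at again where a test of the difference between this step and a neighbouring one passed (limma, adjusted p under 0.05). The steps share arrays. For the second step minus the onset step, the differences of named genes were 5.02 for Egr1, 4.67 for Dusp6, 2.15 for Plk2, 1.19 for Map11, -0.96 for Nox4, -1.16 for Prickle1, -1.35 for Csrnp1, -1.44 for Id1, -1.47 for Id2 and -1.49 for Ccno. Egr1 and Dusp6 passed with each of the 6 arrays left out. The other 8 did not pass without 90 min or without 120 min, and 7 of them, all but Plk2, did not pass without 180 min. Csrnp1, Id2, Map11, Nox4 and Prickle1 did not pass without 240 min, nor Map11 without 60 min. With 1 array left out the difference was 1.88 to 2.57 for Plk2 and 1.02 to 1.33 for Map11. It was -1.05 to -0.87 for Nox4, -1.31 to -0.89 for Prickle1, -1.56 to -1.16 for Csrnp1, -1.87 to -1.04 for Id1, -1.70 to -1.08 for Id2 and -1.70 to -1.30 for Ccno. The 90 min array was the highest of the 6 for Id1, Id2, Csrnp1, Prickle1 and Ccno.

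For the third step minus the second step, the differences were -2.33 for Lrrc75b, -2.08 for Sesn2, -1.44 for Fgfr2 and 1.86 for Tgfbr2. Without 180 min they were -2.28, -2.11, -1.49 and 1.56, and none of the 4 passed. Fgfr2 did not pass without 90 (-1.49), 150 (-1.40) or 240 min (-1.43) either, nor Tgfbr2 without 90 (1.87) or 150 min (1.97), nor Sesn2 without 150 min (-1.74). Lrrc75b passed in the other 5 fits with 1 array left out, at -2.67 to -2.04.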

How the results depend on the processing

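All 667 features called in the second step kept their direction under every alternative except the curve fit, where 666 did. For most this was fixed in advance. The windows of 311 of the 319 and 331 of the 348 did not overlap, so leaving out arrays could not turn their sign. The 6 arrays alone, no filter and the trend and robust options use the same window means. In the curve fit, a spline with 4 degrees of freedom, 2513 features passed, 1210 higher and 1303 lower. Egr1 was at -0.42 (adjusted p = 0.349) in it and Dusp6 at -0.94 (adjusted p = 0.0149), each with its sign turned. The cause was not tested. With 60 and 240 min left out 62 passed, 35 higher and 27 lower, from fewer arrays. With each array left out, 226 to 736 passed, 105 to 329 higher and 121 to 407 lower. The 6 arrays alone gave 528, no filter 608, quantile normalization 667, the trend and robust options 638, array weights 935 and the mean of a gene's probes 662. Of 79 named genes that passed, 60 did not with 60 and 240 min left out, 9 with the 6 arrays alone, 9 with no filter, 4 with the trend and robust options and 8 with the curve fit, Egr1 with its turned sign among them, and 6 to 34 with each array left out.

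The second step minus the onset step (21 features) gave 5 with the arrays of its 3 windows alone, 13 with no filter, 70 with array weights, 228 with the curve fit, and 2 to 37 with each array left out. The third step minus the second step (27 features) gave 1, 16, 164 and 1128 under these alternatives and 0 to 97 with each array left out. No paired analysis was possible because the labels give 1 array per time and no replicate numbers.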

Other observations

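Further nucleolar and ribosome assembly genes, chosen after their values were seen and so with no count or test of a group, were among the 185 features that passed with each array left out. The RNA helicase gene Ddx21 fell by 0.83, Polr1e, a subunit of RNA polymerase I, by 0.78, the ribosomal protein chaperone gene Grwd1 by 0.84, the small-subunit factor gene Tsr1 by 0.73, the large-subunit export factor gene Mdn1 by 0.66 and Utp15 by 0.55.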
